A study of Mus musculus with 2 samples.

Results

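The proteasome is the barrel-shaped protease that degrades ubiquitin-tagged proteins in the cytosol and nucleus. Its 20S core stacks rings of alpha subunits, which gate the entrance, around rings of beta subunits, some of which carry the proteolytic sites. The 19S particle caps the barrel, with a base of ATPases that unfold substrates and a lid that removes ubiquitin. Dedicated chaperones assemble both particles, and activators such as PA28 can take the place of the 19S cap. Every cell type uses the constitutive subunits, and the spleen is a tissue rich in the immune cells that also make the immunoproteasome. The genes described here are the 47 protein-coding mouse genes of GENCODE M21 whose symbols begin with Psm, a letter from a to g and a number, without the 3 immunoproteasome genes Psmb8, Psmb9 and Psmb10. They were taken from 21938 protein-coding genes on mm10, and the rule itself uses symbols and no measured value.

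DNase-seq was used to map open chromatin: in this assay DNase I cuts accessible DNA in nuclei and the cut ends are sequenced. The single group was spleen tissue from male B6CASTF1/J mice, an F1 cross, at 14 days of age. Replicate 1 pooled material of 3 males and replicate 2 used 1 male, both listed under the same donor entry, so the spread between the 2 libraries may be partly technical and no contrast of conditions or test between groups exists. Each library came with peaks, each with a signal value set by the authors, and with footprints, which are short stretches inside open chromatin that were cut less than their surroundings. The scale of the signal and the read depth are unknown here, so signals describe how open a site is, in the deposited unit, and are not RNA levels. A gene's best peak was the one with the highest signal among strict peaks (the shorter of the 2 deposited lists of a library) within 1 kb of any of its start sites.

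Replicate 1 had 48286 strict peaks and 191945 footprints, and replicate 2 had 28837 and 125693. The tissue label was checked with 8 spleen marker genes. Of these, 6 had a promoter peak in both libraries, among them Cd79a and Pax5 of B cells, Lck of T cells and Epor of red cell precursors, with signals from 1.15 to 12.7. Ptprc of leukocytes and Tlx1 of spleen stroma had no promoter peak in either library. Of 4 genes of other tissues, Alb of liver and Acta1 of muscle had none, while Cela1 of pancreas reached 3.73 and 2.24 and Rbfox3 of neurons 1.03 and 0.805. Such a peak in both libraries was present at 51.1% of all protein-coding genes, so these counts separate spleen genes from others only weakly. As the tissue was whole spleen, openness in fewer cells and less openness per cell cannot be told apart.

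The sequences of the best peaks show what the footprints cover. The stretches printed are those of the member with the highest mean signal in each class of the complex, which include the strongest holders of the ETS, NRF1, NFY and GC box motifs described later. They are the mm10 reference (C57BL/6J; the CAST allele of the cross was not read), taken from RefSeq's GRCm38.p6, written 5′ to 3′ on the gene's own strand, and end no more than 50 bases past the start site. Capitals mark bases inside a footprint of replicate 1. The alpha subunit gene Psma2 is shown at chr13:14613001-14613220 on the plus strand, and the beta subunit gene Psmb3 at chr11:97703221-97703440 on the plus strand. The base ATPase gene Psmc5 is shown at chr11:106256041-106256200 (plus), and the ubiquitin receptor gene Psmd4 at chr3:95042565-95042740 (minus). The lid gene Psmd3 is shown at chr11:98682441-98682603 (plus), and the base chaperone gene Psmd9 at chr5:123228121-123228239 (plus). The core chaperone gene Psmg1 is shown at chr16:95990911-95991060 (minus), and the activator gene Psme4 at chr11:30771621-30771775 (plus). Psmf1, which encodes the inhibitor-like PI31, is shown at chr2:151741261-151741460 (minus), and Psmc3ip at chr11:101095387-101095560 (minus).
Psma2: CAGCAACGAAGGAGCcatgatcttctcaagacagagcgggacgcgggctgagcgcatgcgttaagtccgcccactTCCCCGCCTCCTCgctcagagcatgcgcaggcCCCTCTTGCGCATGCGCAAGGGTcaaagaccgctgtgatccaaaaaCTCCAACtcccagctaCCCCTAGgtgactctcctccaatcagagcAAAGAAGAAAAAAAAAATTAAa
Psmb3: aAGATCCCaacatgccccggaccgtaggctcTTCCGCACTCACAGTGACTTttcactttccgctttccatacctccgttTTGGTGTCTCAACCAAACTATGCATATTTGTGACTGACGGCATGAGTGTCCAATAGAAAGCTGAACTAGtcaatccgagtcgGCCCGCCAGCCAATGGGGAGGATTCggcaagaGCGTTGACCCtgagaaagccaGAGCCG
Psmc5: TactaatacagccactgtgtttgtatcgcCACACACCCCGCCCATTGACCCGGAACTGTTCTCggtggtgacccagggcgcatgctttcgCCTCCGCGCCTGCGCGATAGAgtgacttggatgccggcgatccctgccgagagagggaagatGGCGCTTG
Psmd4: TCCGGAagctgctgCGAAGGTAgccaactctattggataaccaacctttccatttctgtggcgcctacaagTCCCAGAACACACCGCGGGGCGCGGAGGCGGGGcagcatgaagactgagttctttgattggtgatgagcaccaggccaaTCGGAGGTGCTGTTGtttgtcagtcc
Psmd3: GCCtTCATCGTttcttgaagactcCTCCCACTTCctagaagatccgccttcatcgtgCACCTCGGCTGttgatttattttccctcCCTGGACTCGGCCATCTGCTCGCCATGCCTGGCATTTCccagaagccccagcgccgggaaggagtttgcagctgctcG
Psmd9: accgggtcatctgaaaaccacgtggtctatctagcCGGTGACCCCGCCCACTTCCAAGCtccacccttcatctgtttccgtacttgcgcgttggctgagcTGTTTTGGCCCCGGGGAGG
Psmg1: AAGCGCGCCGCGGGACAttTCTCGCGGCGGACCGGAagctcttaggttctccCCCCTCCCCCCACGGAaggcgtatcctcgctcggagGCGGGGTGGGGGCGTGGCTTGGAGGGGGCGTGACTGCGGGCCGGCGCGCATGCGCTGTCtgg
Psme4: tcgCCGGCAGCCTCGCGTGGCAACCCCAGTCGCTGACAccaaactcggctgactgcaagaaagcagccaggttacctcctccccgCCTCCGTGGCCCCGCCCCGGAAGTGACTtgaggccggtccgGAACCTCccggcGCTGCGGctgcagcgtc
Psmf1: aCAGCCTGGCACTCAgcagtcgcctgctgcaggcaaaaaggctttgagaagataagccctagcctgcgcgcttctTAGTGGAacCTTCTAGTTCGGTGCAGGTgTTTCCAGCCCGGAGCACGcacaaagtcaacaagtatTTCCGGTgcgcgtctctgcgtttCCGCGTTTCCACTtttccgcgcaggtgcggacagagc
Psmc3ip: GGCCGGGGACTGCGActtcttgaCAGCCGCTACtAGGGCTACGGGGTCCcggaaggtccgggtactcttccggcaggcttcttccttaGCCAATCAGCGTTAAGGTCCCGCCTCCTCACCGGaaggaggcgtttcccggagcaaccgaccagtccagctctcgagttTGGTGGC
In Psma2 a footprint in the middle of the peak holds the NRF1 motif, read on both strands. In Psmb3 the longest run of capitals lies just upstream of the start site and holds a CCAAT box, and the footprint over the start holds another. In Psmd3 none of the 17 motifs searched was found whole in the stretch, which stops short of the peak's end. A match to the antioxidant response element, described later, crosses that end in a footprint of replicate 1. Replicate 1 had 7 footprints in the whole peak, not all of them inside the stretch.

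Promoters of the proteasome genes were open in spleen almost without exception. A strict peak lay within 1 kb of a start site in both libraries at 44 of the 47 genes (93.6%), against 51.1% of all protein-coding genes. All 31 members that encode 26S subunits, 14 of the core and 17 of the 19S cap, were among them, as were all 7 assembly chaperones in the rule. Further such genes, among them Adrm1 and Pomp, have symbols outside the rule and are given later. The 3 genes with no peak in either library were Psma8, Psmb11 and Psme2b. All 3 also had no footprint within 1 kb, no base listed with a false discovery rate under 0.05 and no peak in the larger lists.

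Psma8 encodes the alpha subunit of testis proteasomes. Its nearest strict peak lay 22811 bases away in replicate 1 and 22871 bases away in replicate 2, at the start of Ss18. Psmb11 encodes the beta subunit of thymic cortical epithelium and takes the place there of Psmb5, the chymotrypsin-like subunit. The starts of Psmb11 and Psmb5 lie 3410 bases apart on chromosome 14, and the nearest peak to Psmb11 in both libraries, 3293 bases away, was the Psmb5 promoter peak at chr14:54617941-54618140. That peak had a signal of 5.8 in replicate 1 and 3.749 in replicate 2, so of these close neighbours Psmb5 carried the peak. Psme2b is annotated as a second gene for the PA28 beta subunit, and its nearest peaks were 43890 and 74593 bases away. Of the 36-base words in its 837-base transcript, 74.4% also occur in Psme2 transcripts, and the sources used here do not say how reads with several matches were treated, so its missing peak is uncertain.

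**Figure D1:**
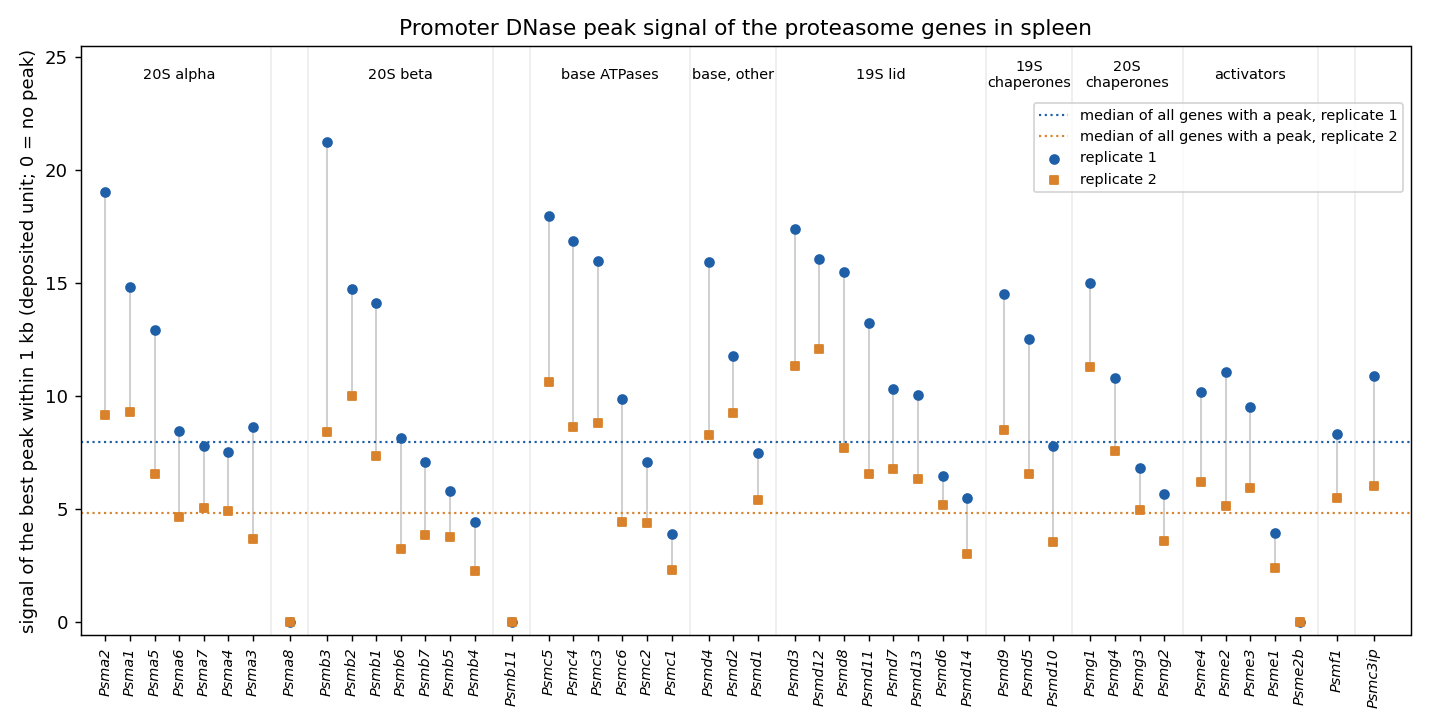
Signal of the best promoter peak within 1 kb of a start site for the 47 genes, grouped by class and ordered by mean signal within a class (y axis, deposited unit, linear). Circles are replicate 1 and squares replicate 2, joined by a line, dotted lines are the medians over all genes with a peak (7.94 and 4.82), and Psma8, Psmb11 and Psme2b stand at 0 for no peak. Replicate 1 lies above replicate 2 at each of the 44 peaked genes.

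The open promoters were moderately strong and rather alike. The median of the mean signals was 8.17 over the 44 genes with a peak (quartiles 5.86 and 11.7), against 6.42 over all genes with a peak in both libraries (quartiles 3.21 and 10.8). In replicate 1 the medians were 10.2 and 7.94, and in replicate 2 they were 6.09 and 4.82. Of the 44, 28 (63.6%) were above the median of all such genes, where 50% of all genes lie, and 13 (29.5%) above the upper quartile, where 25% lie. The count above the upper quartile is therefore close to the background. The members ranged from 3.09 at Psmc1 to 14.8 at Psmb3, which is 4.79-fold.

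By class, the 19S genes had a median of 9.892 and the core genes 6.472, with ranges of 3.094 to 14.36 and 3.318 to 14.83 that overlapped almost wholly. Differences between classes were not tested, because genes of a class are not replicates of it.

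Among the 7 alpha ring genes the median was 6.523. Psma2 had the highest signal of the ring, 19.01 in replicate 1 and 9.142 in replicate 2 (mean 14.08 ± 6.98, SD, n = 2). Signals were higher in replicate 1 at 97.4% of all genes with a peak, so this SD and those below include that shift between the libraries. Psma1 followed Psma2 with 14.8 and 9.28 (mean 12.04 ± 3.9, SD, n = 2), and Psma3 was lowest with 8.62 and 3.66. Psma3, Psma4, Psma6 and Psma7 lay together, with means from 6.14 to 6.523, and only Psma1, Psma2 and Psma5 (mean 9.74) stood above them. The replicate 1 values of the lower 4 did not reach the replicate 2 value of Psma2 or Psma1.

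Among the 7 beta ring genes the median was 5.669. Psmb3, a structural beta subunit, had 21.23 in replicate 1 and 8.418 in replicate 2 (mean 14.83 ± 9.06, SD, n = 2), the highest mean of all 44 and a wide gap between the libraries. Psmb2 had 14.72 and 9.996, and Psmb1 14.12 and 7.336. In replicate 2 alone Psmb2 was above Psmb3, so the order of these neighbours depends on the library. The genes of the 3 catalytic subunits were all below the 3 strongest of the ring. Psmb6, caspase-like, had 8.141 and 3.196, Psmb7, trypsin-like, 7.059 and 3.855, and Psmb5, chymotrypsin-like, 5.8 and 3.749. Psmb4, also structural, was lowest with 4.415 and 2.22. The catalytic genes are given outside the rule for named genes, with their values known.

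Among the 6 base ATPases the median was 9.756, and they split widely. Psmc5 had 17.95 and 10.63 (mean 14.29 ± 5.18, SD, n = 2), Psmc4 16.87 and 8.613, and Psmc1 was the lowest of all 44 with 3.886 and 2.302. Psmc3, at 15.97 and 8.816, lay with the strong pair, while Psmc6 and Psmc2 lay between, with means of 7.119 and 5.717. The lowest library value of Psmc4 or Psmc5 was above the higher value of Psmc1 and of Psmc2. These ATPases sit side by side in 1 ring, in equal numbers.

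The non-ATPase genes of the base had a median of 10.51. Psmd4, which binds ubiquitin chains, had 15.92 and 8.247, and Psmd2, a large scaffold that docks ubiquitin-carrying shuttles, had 11.78 and 9.247. Psmd1, the other large scaffold, was lower with 7.462 and 5.376. Psmd1 stood out by its sequence, since its peak had the lowest ratio of observed to expected CpG, 0.296, where the median of the members was 0.872 and of all genes 0.854.

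The 8 lid genes had a median of 9.216. Psmd3 had 17.38 and 11.34 (mean 14.36 ± 4.27, SD, n = 2), and Psmd12 had 16.06 and 12.09 (mean 14.08 ± 2.81, SD, n = 2), both structural lid subunits. Psmd14, the metalloprotease that cuts ubiquitin from substrates, was lowest with 5.489 and 2.977. Its inactive partner Psmd7, with which it pairs, had 10.32 and 6.759, so both library values of Psmd7 exceeded the higher one of Psmd14. The peak of Psmd14 was wide, 320 and 340 bases, where the median of the members was 200 in both libraries.

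The chaperone genes lay within the span of the 26S subunits, with means from 4.601 to 13.13. Of the 3 base chaperones, Psmd9 had 14.53 and 8.483, Psmd5 12.51 and 6.531, and Psmd10 (gankyrin, on chromosome X and so with 1 copy in males) 7.755 and 3.522. Of the 4 core chaperones, Psmg1 had 15.01 and 11.26, Psmg4 10.78 and 7.556, and Psmg2, the direct partner of Psmg1, was lowest with 5.632 and 3.57. In both libraries Psmg1 thus lay above Psmg2 by more than the gap between the libraries of either gene.

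None of the activator genes had a mean above 8.173. Psme4, which encodes the nuclear activator PA200, had 10.17 and 6.173. Psme2, for PA28 beta, had 11.04 and 5.108, and Psme3, for the nuclear PA28 gamma, had a mean of 7.719. Psme1, for PA28 alpha, had 3.936 and 2.383. Psme1 and Psme2 encode partners of 1 ring and the genes lie 5911 bases apart, end to end, but the Psme2 value came from a peak 428 bases from its nearest start, at the start of Rnf31. The peak over the Psme2 start itself had 5.842 and 2.782, nearer to the values of Psme1. Psmf1 had 8.301 and 5.482. Psmc3ip, which the symbol rule takes in although its protein acts in meiotic recombination and is no proteasome subunit, had 10.86 and 6.002.

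**Figure D2:**
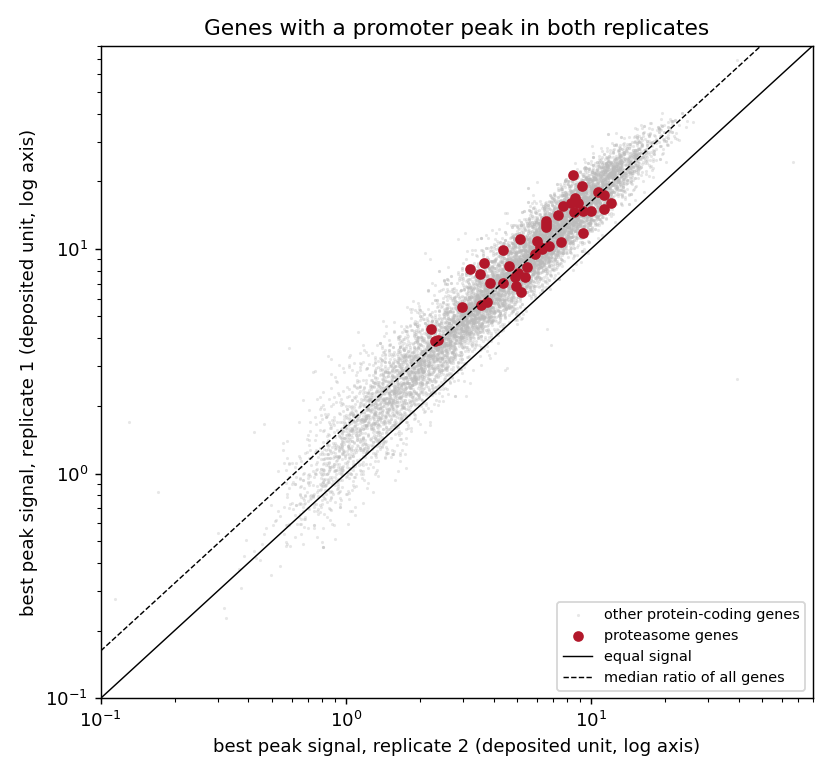
Best promoter peak signal in replicate 2 (x axis) and replicate 1 (y axis), both in the deposited unit on log axes, for genes with a peak in both libraries. Red points are the 44 proteasome genes and grey points the other genes, the solid line marks equal signal and the dashed line the median ratio of all genes. The red points follow the dashed line within the grey cloud.

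The libraries ranked these promoters alike. Signals were higher in replicate 1 at 44 of 44 genes, as at 97.4% of all genes with a peak. On the log2 scale, the ratio between the libraries (1 over 2) had a median of 0.76 at the members and 0.70 at all genes, a difference of 0.05 from unrounded values, and 25 of 44 (56.8%) lay above the median of all genes, where 50% lie. Less that median, single members ran from -0.39 at Psmd6 to 0.64 at Psmb6, with Psmb3 near the top. The SD of the log2 ratio was 0.26 over the members and 0.34 over all genes. Across the 44 genes, the Spearman correlation between the libraries was 0.91, where all 11220 genes gave 0.97 over a wider span. Genes of 1 library share its preparation and depth, so these values describe the pair of libraries. None of the 4 core chaperones lay above the all-gene ratio, and all 3 base chaperones did. These 2 small classes were picked with their values known and without a test, and Psmg2 (-0.05) and Psmd9 (0.07) lay close to the all-gene median.

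Peaks were placed tightly at the starts. The best peak covered a start site in both libraries at 39 of 44 genes (88.6%), against 72.7% of all genes with a peak in both. The 2 best peaks overlapped at 44 of 44 (96.2% of all genes). They had the same first and last base at 20 of 44 (45.5%), against 28.3% of all genes. A second strict peak within 1 kb in both libraries was present at 13 of 44 (29.5%), against 39.4%. A further peak in the gene body beyond 1 kb was present in both libraries at 6 of 44 (13.6%), against 22.8%. The members thus had fewer extra peaks and more fixed edges than all genes, by these counts. The counts of extra peaks were not adjusted for gene length or for the number of annotated start sites. Median peak width was 200 bases in both libraries (220 and 200 over all genes), and median GC content was 63.1%, where all genes had 65.8%.

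Several members had more than 1 open start. Psmb1 had its best peak upstream of 1 start and a second peak over another, at 10.21 and 7.255. At Psmd13 a second peak over an earlier start had 7.31 and 6.206, and at Psmd1 a neighbouring one had 5.153 and 3.522. Psmb3 had a weaker peak 739 bases from its nearest start, at 5.221 and 3.798. These second peaks were named after their values were seen.

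A best peak shared with the start of another protein-coding gene was found at 11 of 44 members (25%), against 22.8% of all genes, so sharing was about as common as elsewhere. Of the 11, 9 were head to head, that is, transcribed away from each other. The closest were Psmc2 with Dnajc2, a ribosome-bound chaperone, 67 bases between starts. Psmc5 with Ftsj3, an rRNA methyltransferase, and Psma2 with Mrpl32, a mitochondrial ribosomal protein, were both 75 bases apart, and Psma7 with Ss18l1 was 76 bases apart. Then came Psmd13 with the mitochondrial deacetylase gene Sirt3 at 105 bases, Psmb1 with the TATA-binding protein gene Tbp at 137, Psmd10 with the autophagy gene Atg4a at 179 and Psmg2 with the centrosome gene Cep76 at 263. Psme2 and Rnf31, a ubiquitin ligase of the linear type, were 595 bases apart, and a separate peak lay over the Psme2 start. The other two were Psma4 with AY074887, on the opposite strand with overlapping starts, and Psmg3 with Gm26938 on the same strand. At these 11 sites the signal cannot be assigned to 1 gene of the pair, though the best peak of Psme2 lay at the start of Rnf31. The sites include those of Psma2 and Psmc5, the strongest of their classes.

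**Figure D3:**
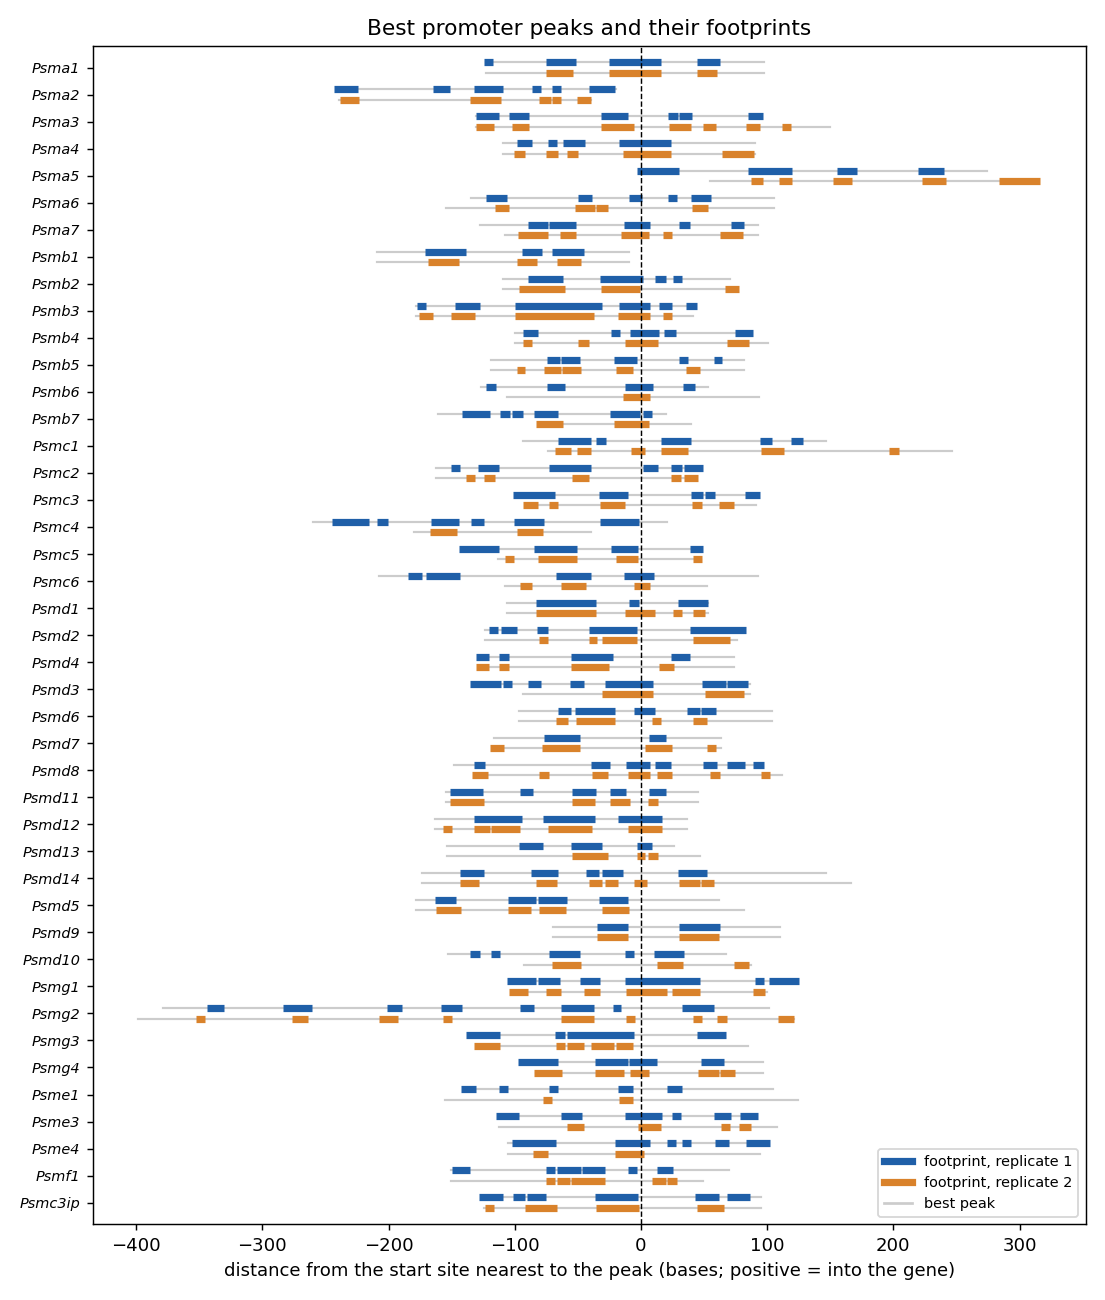
Best promoter peaks (grey lines) and the footprints in them (bars; upper, replicate 1; lower, replicate 2) for the members, by distance in bases from the start site nearest to the peak (x axis; dashed line, start site). Psme2 is left out because its peak lies further upstream, and footprints cluster from 100 bases upstream to the start site in most rows.

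Footprints lay in the best peak of 44 of 44 members in both libraries, as at 99.2% of all genes with a peak. There were 213 in replicate 1 and 184 in replicate 2, with a median of 5 and 4 per peak, the same as over all genes. Their median width was 16 and 13 bases (7 to 69 and 7 to 62). A median of 37.8% and 30.7% of a member's peak lay in footprints (35% and 30% over all genes). Psmb3 had the most footprint cover in both libraries, with 62.3% and 56.8% of the peak, and Psme1 the least, with 17.9% and 6.43%.

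Many footprints recurred between the libraries and lay close to the start. Of the footprints in replicate 1, 149 (70%) overlapped one of replicate 2, and of those in replicate 2, 158 (85.9%) overlapped one of replicate 1. Over all genes with a peak these shares were 65.7% and 74.5%. Centres within 100 bases upstream of the start made up 93 footprints (43.7%) in replicate 1 and 90 (48.9%) in replicate 2, against 35.7% and 36% over all genes. A footprint over the start site itself was present in both libraries at 15 of 44 members (34.1%), against 20.1% of all genes. At both measures the members had more footprints at and just before the start than all genes, as did their peaks, which covered the start more often.

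Sequence motifs were then looked for in the footprints, widened by 5 bases on each side, on both strands. A match is a string of letters and does not show which protein was bound. Of the 17 motifs, the GC box GGGCGG, read by SP and KLF factors, was the most common, in footprints of both libraries at 24 of 44 members (54.5%), against 53.2% of all genes with a peak. Of its 37 matches, 28 lay within 100 bases upstream, a share that was not computed for all genes. The ETS core CCGGAAG came next, at 12 of 44 (27.3%), against 8.81%. These 12 include Psmc3ip, which is no subunit, and Psme2, whose match lies in the peak at the start of Rnf31. The NRF1 motif GCGCANGCG was at 8 (18.2%), against 14.1%, and the CCAAT box of NFY at 6 (13.6%), against 15.6%. The GC box, NRF1 and NFY shares are thus near those of all genes, and the ETS share stands above it. In all, 38 of 44 members held at least 1 of the motifs in footprints of both libraries, and 20 held at least 2 kinds. Psmb6, Psmc2, Psmd3, Psmd13, Psmg2 and Psmg3 held none. These counts were not made for all genes, of which 53.2% held the GC box alone, so they are not read as a trait of the members.

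**Figure D4:**
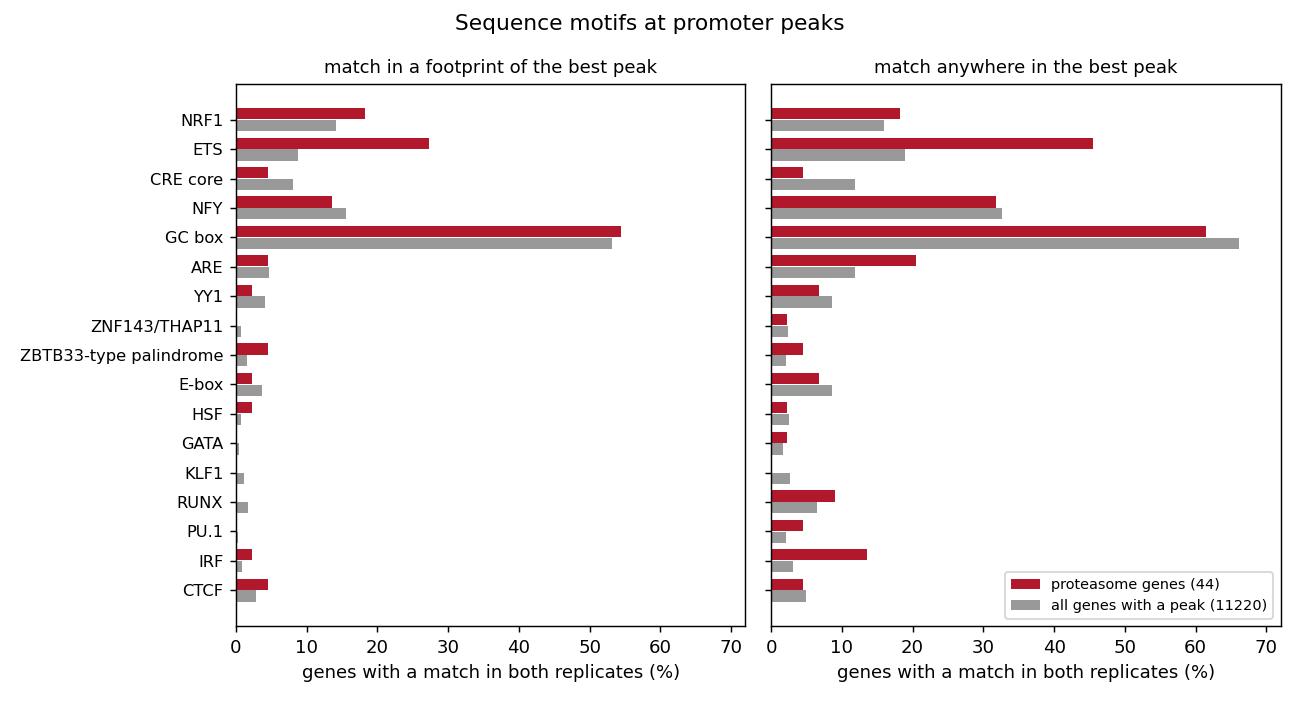
Share of genes (x axis, %) with a motif match in both libraries, in a footprint of the best peak widened by 5 bases (left) and anywhere in the best peak (right). Red bars are the 44 proteasome genes with a peak and grey bars the 11220 genes with a peak. ETS is at 27.3% against 8.81% on the left and at 45.5% against 18.9% on the right.

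The ETS matches follow with 8 bases on either side, on the strand that reads CCGGAAG, with the match in capitals, because they carry the widest gap from all genes. ETS proteins such as GABPA and ELK read this core at many promoters without a TATA box.
Psma6 at chr12:55398815-55398837 on the plus strand: ccggtgctCCGGAAGcagtagcc
Psmc1 at chr12:100110166-100110188 on the minus strand: cgccaccgCCGGAAGtgcatcca
Psmc6 at chr14:45329716-45329738 on the plus strand: cgggccagCCGGAAGgggcggag
Psmd2 at chr16:20651618-20651640 on the minus strand: cctccagaCCGGAAGcgccctgc
Psmd4 at chr3:95042725-95042747 on the minus strand: cagctgttCCGGAAGctgctgcg
Psmd7 at chr8:107588441-107588463 on the minus strand: cggtcaaaCCGGAAGgggaggtg
Psmd14 at chr2:61711733-61711755 on the plus strand: ccgggaacCCGGAAGtacttctc
Psmg1 at chr16:95991015-95991037 on the minus strand: gcggcggaCCGGAAGctcttagg
Psme2 at chr14:55591533-55591555 on the plus strand: gggtccctCCGGAAGgggcggga
Psme3 at chr11:101316207-101316229 on the minus strand: cgctcacgCCGGAAGttgcgtca
Psme4 at chr11:30771714-30771736 on the plus strand: gccccgccCCGGAAGtgacttga
Psmc3ip at chr11:101095428-101095450 on the minus strand: cctcctcaCCGGAAGgaggcgtt
The matches sat at different distances, from -431 bases at Psme2 to 51 bases at Psma6 (negative values are upstream), with a median of -2, and 8 of the 12 lay on the gene's own strand. The base after the core was C, G or T at 4 members each, so these windows share little beyond the 7 letters searched. T, which completes the full consensus of several ETS proteins, followed at Psmc1, Psmd14, Psme3 and Psme4. At Psme4 the core shares a base with a GC box. Mean signals of the 12 ran from 3.09 to 13.1, with a median of 8.12, and the 24 members with no match anywhere in the peak had 9.34 and ran from 3.16 to 14.8, so the levels of holders and others overlapped.

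The ETS count depended on the width given to a footprint. Without the 5 added bases it fell to 5 of 44 (11.4%), against 3.99% of all genes, and over the whole peak it was 20 (45.5%), against 18.9%. The share at the members was thus above that of all genes at each width. Matches anywhere in the peak were spread unevenly over the complex. Of the 14 core genes, Psma6 and Psmb7 held one. Of the 17 genes of the 19S cap in the rule, 12 did, 4 of 6 base ATPases, 2 of 3 other base genes and 6 of 8 lid genes. Adrm1, a base gene outside the rule, and Sem1, another proteasome gene outside it, held none. These classes were compared after their values were seen, and no test was made.

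NRF1 here is nuclear respiratory factor 1, a regulator of housekeeping and mitochondrial genes, and not NFE2L1, which is also known as Nrf1. Its motif was in footprints of both libraries at 4 of 7 alpha ring genes, Psma2, Psma3, Psma4 and Psma5, and at 0 of 7 beta ring genes, where 14.1% of all genes hold it. With so few genes, 0 of 7 is near that background, and the rings were compared with their values known and without a test. It was also at Psmc4, Psmc5, Psmd14 and Psmg1. The 4 alpha genes are shown with the match in capitals and 8 bases on either side, so that their letters can be set side by side.
Psma2 at chr13:14613107-14613131 on the plus strand: cccctcttGCGCATGCGcaagggtc
Psma3 at chr12:70974537-70974561 on the plus strand: tggtttctGCGCACGCGcgctctct
Psma4 at chr9:54950790-54950814 on the plus strand: gcagtcctGCGCACGCGcgggagcc
Psma5 at chr3:108257140-108257164 on the minus strand: ctgcgcgtGCGCACGCGaccttttt
The count stayed at 8 under each footprint width and over the whole peak. Where the letters around it make the motif nearly a palindrome, as at Psma2, Psma5 and Psmg1, both strands match and overlap, which gave 11 matches in 8 members.

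NFE2L1 and NFE2L2 read the antioxidant response element, TGACNNNGC, and NFE2L1 is known to raise proteasome genes together when the proteasome is inhibited. In footprints of both libraries the element was at Psmb5 and Psmd9 alone, 2 of 44 (4.55%), against 4.71% of all genes. Anywhere in the peak it was at 9 members (20.5%), against 11.8%. The spleens carried no such treatment by their labels. The 9 are 2 alpha genes, 3 beta genes, Psmd3, Psmd9, Psmg2 and Psme4, and 8 of them are shown, on the strand of the motif, because the element is the one best known for this gene family.
Psma1 at chr7:114276017-114276041 on the plus strand: cgacaaccTGACCCAGCagcggaca
Psma3 at chr12:70974725-70974749 on the minus strand: catggtgcTGACCCGGCaggccgcg
Psmb2 at chr4:126677621-126677645 on the plus strand: cgcgccagTGACTGGGCcgtcgcgc
Psmb5 at chr14:54618026-54618050 on the minus strand: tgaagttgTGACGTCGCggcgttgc
Psmb6 at chr11:70525340-70525364 on the plus strand: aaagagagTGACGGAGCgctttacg
Psmd3 at chr11:98682591-98682615 on the minus strand: ccgcacgaTGACCGAGCagctgcaa
Psmd9 at chr5:123228151-123228175 on the plus strand: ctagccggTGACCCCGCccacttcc
Psme4 at chr11:30771760-30771784 on the minus strand: tcttctggTGACGCTGCagccgcag
At Psmb5 the letters also hold the CRE core TGACGT, which overlaps the element, so both motifs were counted for the same bases. Of the 8 windows, those of Psmb5 and Psmd9 were in footprints of both libraries. The match at Psmb6 was in a footprint of replicate 2 alone and that at Psmd3 in one of replicate 1 alone. The positions ran on either side of the start, and those past it lie in transcribed sequence.

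The remaining motifs were rare in the footprints. CTCF (CCANNAGGG) was at Psmd6 and Psmd14, the palindrome CTCGCGAG of ZBTB33 type at Psmb2 and Psmd5, and CRE cores at Psmb2 and Psmb5, each 2 of 44 (4.55%), against 2.81%, 1.52% and 8.11% of all genes. YY1 (ATGGCGG) was at Psmd1, the E-box CACGTG at Psma4, HSF (GAANNTTC) at Psmf1 and IRF (GAAANNGAA) at Psmb4 alone, where all genes had 4.13%, 3.72%, 0.722% and 0.847%. The IRF letters, read by interferon regulatory factors, lay anywhere in the peak at 6 members (13.6%), against 3.13% of all genes. The 6 were Psmb3, Psmb4, Psmd4, Psmd7, Psmg4 and Psme1. Of the groups described later, the cytosolic ribosomal set had 9.41%, the pathway genes outside the rule 7.41%, the mitochondrial ribosomal genes 3.85% and the immunoproteasome genes 0%. Among motifs of blood cell factors, those of GATA factors, searched as AGATAA, of KLF1 (CCACACCC), RUNX (TGTGGT) and PU.1 (GAGGAAGT) were in footprints of both libraries at 0 of 44 members, as was ZNF143/THAP11 (ACTACAANT). All genes had 0.41%, 1.16%, 1.73%, 0.365% and 0.722% for these, so a count of 0 among 44 is near that background.

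Other genes of the ubiquitin and proteasome pathway were open too. Of a list of 27 such genes outside the rule, 27 had a promoter peak in both libraries, with a median mean signal of 10.7. Rad23b, a shuttle that brings ubiquitin-tagged proteins to the proteasome, had 33.5 and 20.9, above each of the 44 members in both libraries. Vcp, the unfolding ATPase upstream of the proteasome, had 25.3 and 12.6, and the polyubiquitin gene Ubb had 23.5 and 12.1. Nfe2l2 had 26.7 and 13.7 and Nfe2l1 19.3 and 8.01. Adrm1, a ubiquitin receptor of the 19S base, had 17.7 and 9.29, while Pomp, the chaperone that matures the core, had 4.78 and 2.74. Ubqln2, on chromosome X, was low with 2.14 and 1.19. These genes were picked from the list with their values in view.

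The immunoproteasome genes, whose products replace the catalytic subunits in immune cells, had peaks at 3 of 3. Psmb9 had 16.6 and 10.4 at a site shared with Tap1, Psmb10 had 5.42 and 2.17, and Psmb8 had 3.81 and 2.93. The subunits they replace, Psmb6, Psmb7 and Psmb5 in that order, had means of 5.669, 5.457 and 4.775. Psmb9 was thus above Psmb6 in both libraries, and the other two were below their constitutive partners in both. For other large complexes, genes were taken by the start of their symbols. Of 98 in the cytosolic ribosomal protein set, 85 had a peak in both (median 9.22). All 78 of 78 in the mitochondrial set did (median 6.89), so the proteasome median of 8.17 lies between them. The cytosolic rule, Rpl or Rps and a number, also takes symbols with further letters, so genes of other proteins may be among the 98.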

How the data were processed

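DNase-seq libraries of 2 replicates of 1 group were analysed. The deposited peaks carry a signal value, made by the authors for each library alone on mm10, per the deposited file descriptions. The deposited footprints have a score that is 0.01 in every row, so only their positions were used. The false discovery rates in the deposited files, which are p-values adjusted by the authors, cover the bases below 0.05. The sources used here do not give the aligner, the callers, their versions, the signal's scale or the read depth, so no counting interval is given.

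From these, Python 3.11.15 and numpy 2.4.6 took the best strict peak within 1000 bases of any GENCODE M21 start site, footprints sharing at least 1 base with it, and 17 motifs in footprints widened by 5 bases, in each library. Overlap needed at least 1 base. The steps found every simulated best peak (2000 of 2000) and every planted motif (850 of 850). With 1 group there was no test, and members are set beside all genes as counts and medians. The genes, lists and motifs were chosen with earlier results of these data known. Full values are given for the 2 highest and the lowest member of each class of at least 3, for every member of smaller classes and for members without a peak, and others were chosen after their values were seen. Alternatives were the larger peak lists, other windows, each library alone, the nearest peak and other footprint widths. 1 of 31 listed genes outside the rule or of the immunoproteasome was not analysed here.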

Additional observations from a re-analysis of the deposited data

How the results depend on the processing

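No paired analysis was possible because the series has 1 group. The 44 members with a peak in both libraries stayed 44 with the larger lists, the strongest 50% of peaks, windows of 500 and 2000 bases and equal numbers of peaks, and 44 members kept a footprint under each alternative tried. Leaving out a replicate moved the median signal over all 47 genes, 8.07 with missing peaks at 0, between 5.92 and 10. The median log2 ratio at the members less that of all genes, 0.05, was 0.07 with the larger lists. Sharing with another start was 11 and became 14 with start sites of every gene type.

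Motif counts moved with the footprint width. Without widening, ETS fell from 12 to 5 (11.4%, against 3.99% of all genes with a peak). The GC box fell from 24 to 20 (45.5%, 42.6%) and NFY from 6 to 4 (9.09%, 8.22%). CRE (5.61% of all genes), ARE (2.23%) and the CTCGCGAG palindrome (1.25%) each fell from 2 to 1 (2.27% of members). YY1 (2.21% of all genes), E-box (2.14%) and HSF (0.107%) fell from 1 to 0. Over the whole peak, counts were 20 for ETS (45.5%, against 18.9% of all genes with a peak), 14 for NFY (31.8%, 32.7%), 9 for ARE (20.5%, 11.8%), 6 for IRF (13.6%, 3.13%), 4 for RUNX (9.09%, 6.54%), 3 for YY1 (6.82%, 8.63%), 3 for E-box (6.82%, 8.55%), 2 for PU.1 (4.55%, 2.08%), 1 for GATA (2.27%, 1.74%) and 1 for ZNF143/THAP11 (2.27%, 2.35%). With 1 replicate left out, ETS was 13 and ARE 3 either way, NFY was 8 or 9 and the GC box 24 or 25. YY1 was 2 either way, IRF ran from 1 to 2, RUNX from 0 to 1 and PU.1 from 0 to 1. The wider search holds more sequence by its construction. Depth is unknown, so a missing peak is not shown to be closed chromatin.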

Other observations

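The ETS core was also frequent at the promoters of other large complexes. Anywhere in the best peak it was present in both libraries at 27 of 78 mitochondrial ribosomal protein genes with a peak (34.6%). It was at 29 of 85 of the cytosolic set (34.1%), which may include genes of other proteins by its symbol rule. The proteasome genes had 45.5% and all genes 18.9%. In footprints the shares were 19.2% and 12.9%, beside 27.3% and 8.81%. In the 27 pathway genes outside the symbol rule the core was in the peak at 5 (18.5%), at the level of all genes. For NRF1, the mitochondrial ribosomal protein genes had the highest footprint share, 21.8%, beside 18.2% at the proteasome genes.

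None of the immunoproteasome genes was among those with an ARE in a footprint of both libraries, while Psmb10 held one elsewhere in its peak. Among the members, Psmd9 had the most peaks in the gene body beyond 1 kb of its starts, 3 in each library, and Psma2 had 2 in each. Their annotated spans are long, 80719 and 60997 bases, and the counts were not adjusted for length.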
